A study of Mus musculus with 9 samples.

Results

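A set of 10 genes of the regulated secretory pathway were followed in the mediobasal hypothalamus (MBH) of mice at weaning: the prohormone convertases Pcsk1 and Pcsk2, their partner proteins Pcsk1n and Scg5, the trimming and amidating enzymes Cpe and Pam, and the granins Chga, Chgb, Scg2 and Scg3. They were chosen by symbol, as a functional group and with earlier results of these data known, and all 10 passed the filter on low counts that left 15340 genes. In these genes 40 transcripts were quantified.

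The MBH, the base of the hypothalamus with the arcuate nucleus, was taken from wild-type C57Bl/6 male offspring at P21 (postnatal day 21). In the CTRL group (4 libraries) the dams had plain drinking water, and in the Emul group (5 libraries) their water held 1% sodium carboxymethylcellulose (CMC) and 1% polysorbate 80 (P80), 2 food emulsifiers, from before mating until weaning. The methods give 4 control and 5 emulsifier-treated litters, so each library is read as 1 litter. Emul is read here as maternal treatment, from the methods and the title of the series. The labels themselves give only control or emulsifier, place P21 after weaning, and describe water given to the offspring from then on, so intake by the pups themselves cannot be told apart from exposure through the dam.

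Neuropeptides are made as long precursors and cut to active peptides inside dense-core vesicles. The convertases PC1/3 (Pcsk1) and PC2 (Pcsk2) cut at pairs of basic residues, carboxypeptidase E (Cpe) removes the basic residues left at the new end, and Pam turns a C-terminal glycine into an amide. ProSAAS (Pcsk1n) inhibits PC1/3, 7B2 (Scg5) is the chaperone that PC2 needs, and the granins are acidic proteins that help to form and fill the vesicles. In the arcuate nucleus this machinery makes α-MSH from pro-opiomelanocortin (Pomc), whose neurons lower food intake.

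The upstream regions of several of these genes hold a cAMP response element, the palindrome TGACGTCA. RefSeq promoter windows on GRCm38.p6 (250 bases before to 50 after a start) were found for 9 of the 10 genes, in 10 windows. Cpe had no window. The full element stood in 3 genes, Pcsk1, Chgb and Scg2, and in 588 of the 32851 windows of all genes (1.79%). Its 5-base part TGACG, searched on both strands and contained in the full element, stood in 7 of the 9 genes and in 20.8% of all windows. Chga had TGACG with a different continuation, and Pam and Pcsk1n had neither. The 30 bases around the element are shown for the genes with the full element and for Chga, 5′ to 3′ on the gene's strand with the match in capitals. The match began 78 bases before the RefSeq start in Pcsk1 (chr13:75089768-75089797, plus strand), 72 in Chgb (chr2:132781559-132781588, plus strand), 68 in Scg2 (chr1:79440076-79440105, minus strand) and 44 in Chga (chr12:102554885-102554914, plus strand). The GENCODE M21 annotation starts Chgb-201 and Scg2-201 further upstream, so there both windows lie in exon 1. A match is a description of the sequence and not a bound site.
Pcsk1: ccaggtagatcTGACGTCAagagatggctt
Chgb: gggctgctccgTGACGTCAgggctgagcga
Scg2: ggctgagccggTGACGTCAgcgtggaatgc
Chga: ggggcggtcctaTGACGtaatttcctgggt

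Per unit length, the 10 transcripts differed widely in abundance. In TPM (a share of all transcripts, corrected for transcript length), Cpe averaged 2100 ± 140 (SD, n = 9) and ranked 28th of the 27665 genes with a value. Scg2 followed with 816 ± 48 TPM, then Pcsk1n with 558 ± 35 and Scg5 with 327 ± 12. The convertases came last, with Pcsk2 at 109 ± 4.7 TPM and Pcsk1 at 35.5 ± 2.7. Between them lay Chga at 291, Pam at 234, Chgb at 221 and Scg3 at 199 TPM. This order held within each of the 9 libraries, although over libraries the ranges of Scg5 and Chga, of Pam and Chgb, and of Chgb and Scg3 overlapped. The inhibitor transcript was thus far above its enzyme, with a TPM ratio of Pcsk1n to Pcsk1 of 16.0 ± 0.35 in CTRL (n = 4) and 15.7 ± 1.7 in Emul (n = 5). Scg5 stood to Pcsk2 as 3.01 ± 0.21 in CTRL and 3.02 ± 0.18 in Emul.

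**Figure D1:**
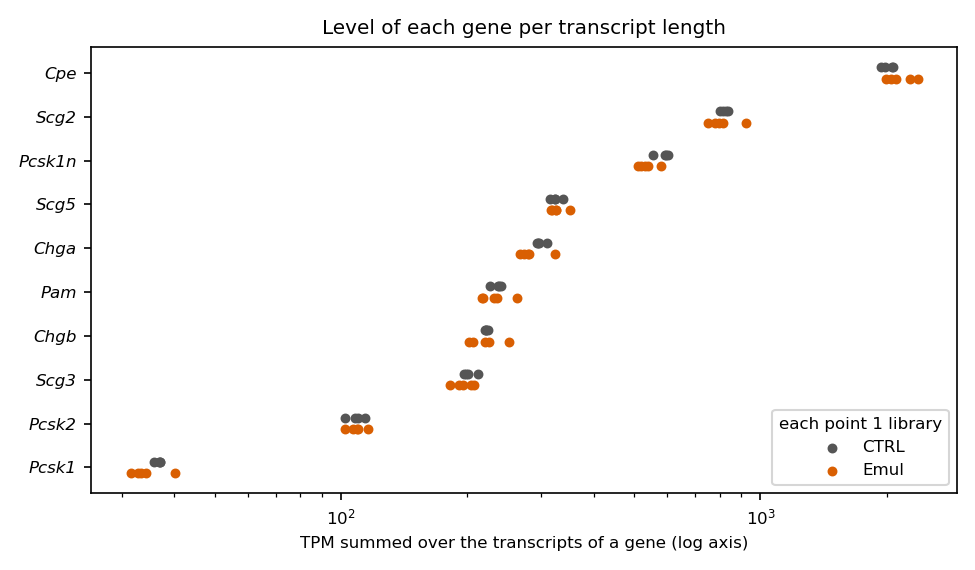
TPM of the 10 genes on a log axis, each point 1 library, CTRL in grey and Emul in orange. Cpe lies highest (1940 to 2370 TPM) and Pcsk1 lowest (31.5 to 40.3 TPM).

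Together the 10 genes took 0.529% ± 0.01 of the estimated counts on genes in CTRL and 0.553% ± 0.021 in Emul, and Cpe made up 42.9% of their summed TPM. The libraries held 28245360 to 46067534 estimated counts, lowest in CTRL 3, and single genes between 2564 (Pcsk1) and 94543 (Cpe), so counting error was small and the spread between litters set the precision. Over all genes, Emul 2 and Emul 5 differed most from the rest of their group (chi-square per gene of 15.4 to 21.4 in pairs with either). In the 10 genes it was Emul 5 that stood apart, and values for these genes that rest on it are given without it as well. As a check of the dissection, 9 of 10 MBH markers passed the filter (all but Kiss1), and their mean log2 CPM (counts relative to library size) was 4.05 to 4.30 in CTRL and 3.92 to 4.24 in Emul. Of 10 pituitary markers, 4 passed the filter, with summed TPM of 28.0 to 55.9 in CTRL and 37.6 to 66.8 in Emul. Of the pituitary hormone genes, Gh, Prl, Lhb and Fshb stayed at or below 0.142, 0.115, 0.813 and 0.277 TPM in every library. Cga, at 7.86 to 18.8 TPM, and Tshb, at 2.64 to 4.11 TPM, did not stay that low.

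The main comparison asked whether maternal emulsifiers moved the transcripts of this machinery. Of the 10 genes, 9 were higher in Emul and 1, Pcsk1n, lower, all by at most 1.11-fold. At any p, 50.8% of all genes were higher. The median log2 fold change was 0.07 for the 10 genes and 0.00 for all genes. By limma-voom, 0 of the 10 passed an adjusted p of 0.05 (0.117% of all genes did) and 0 passed 0.10 (0.398% of all genes). At an unadjusted p under 0.05, Cpe, Scg5 and Pcsk2 passed, all higher in Emul. That is 3 of 10, where 15.8% of all genes passed and 6.84% passed as higher and 8.99% as lower. edgeR's quasi-likelihood test gave 0 at the adjusted threshold (0.215% of all genes) and 3 at the unadjusted one (16.1%). DESeq2 gave 1 (Cpe, adjusted p = 0.044, where 2.22% of all genes passed) and 4 (15.2%). Over the alternative settings the adjusted p of Cpe ran from 0.044 to 0.90. The study's cutoff is read from its methods as an unadjusted p under 0.05 with a 1.5-fold change. Its volcano plot legend instead calls that p a false discovery rate. None of the 10 genes reached the cutoff, which 0.469% of genes passed. The groups overlapped in all 10 (they did not in 6.6% of all genes).

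**Figure D2:**
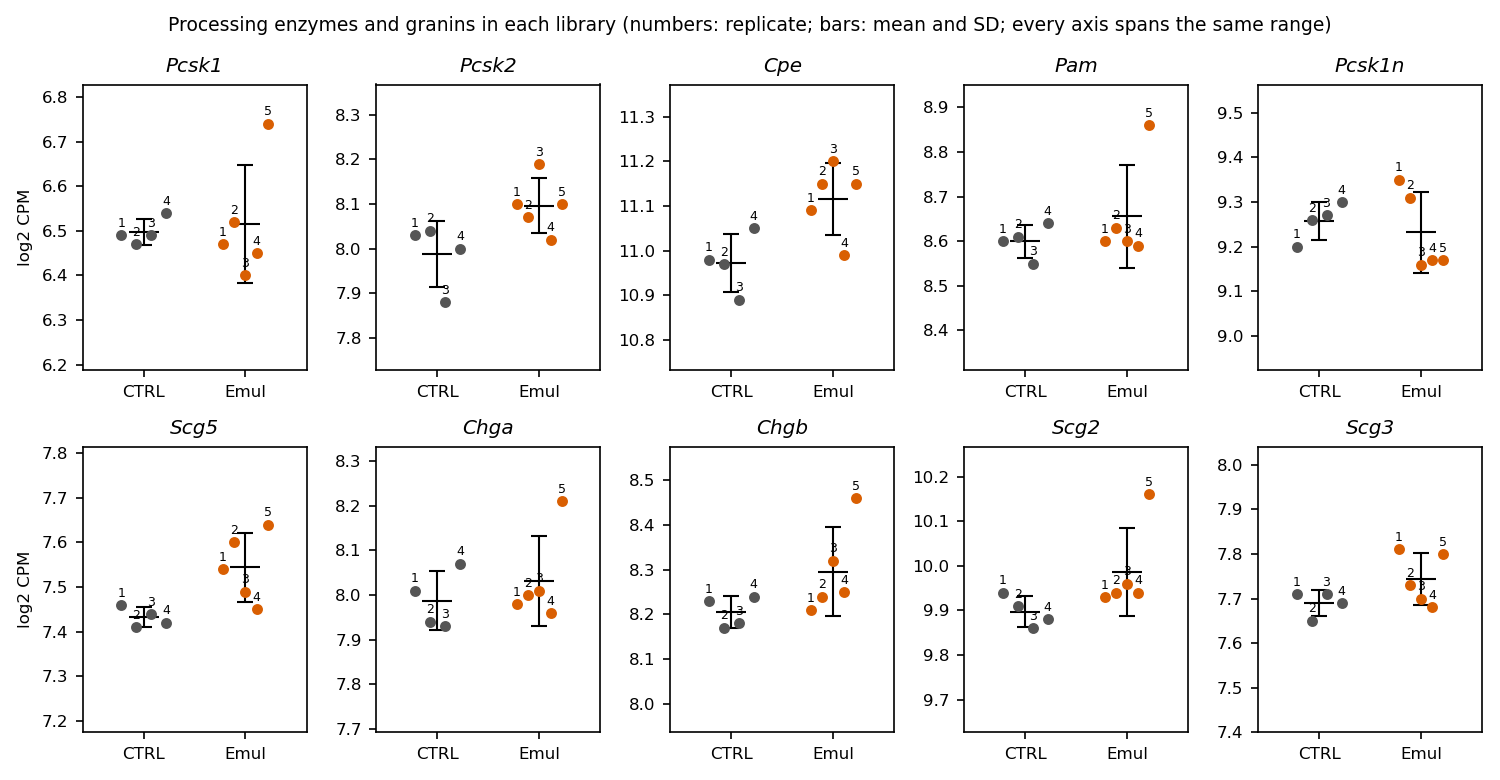
Log2 CPM of the 10 genes in each library, with the replicate number beside each point and bars for the mean and SD of 4 CTRL and 5 Emul libraries. The groups overlap in every panel, and Emul 5 is the highest Emul library for Pcsk1, Pam, Scg5 and 3 of the 4 granins.

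Cpe, the carboxypeptidase, had the largest difference. Its log2 CPM was 10.98, 10.97, 10.89 and 11.05 in CTRL 1 to 4 and 11.09, 11.15, 11.20, 10.99 and 11.15 in Emul 1 to 5. Each Emul library but Emul 4 was above all CTRL libraries. The log2 fold change was 0.15 ± 0.042 (SE), with an unadjusted p of 0.0049 and an adjusted p of 0.17 by limma-voom. Without Emul 4 it was 0.18, with an adjusted p of 0.068. The amidating enzyme Pam had 8.55 to 8.64 in CTRL and 8.59 to 8.63 in Emul 1 to 4, against 8.86 in Emul 5. Its log2 fold change was 0.05 ± 0.051 with Emul 5 and 0.00 ± 0.027 without it.

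Of the convertases, Pcsk2 was the one with a difference at the unadjusted threshold. Its log2 CPM was 8.03, 8.04, 7.88 and 8.00 in CTRL 1 to 4 and 8.10, 8.07, 8.19, 8.02 and 8.10 in Emul 1 to 5. CTRL 3 was lowest and Emul 3 highest, and again only Emul 4 fell within the CTRL range. The log2 fold change was 0.10 ± 0.041 (limma-voom, unadjusted p = 0.026, adjusted p = 0.25). It was 0.07 without CTRL 3 and 0.08 without Emul 3, where the unadjusted p-values of 0.095 and 0.061 missed the threshold. Pcsk1 spanned 6.47 to 6.54 in CTRL and 6.40 to 6.74 in Emul, so the Emul range enclosed the CTRL range. Its log2 fold change of 0.01 ± 0.058 had a 95% interval of -0.11 to 0.14, and was -0.04 without Emul 5. The TPM ratio of Pcsk2 to Pcsk1 was 2.96 ± 0.16 in CTRL and 3.18 ± 0.34 in Emul, with overlapping ranges.

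The partner proteins of the convertases differed from each other. Scg5, which encodes the PC2 chaperone, had a log2 CPM of 7.46, 7.41, 7.44 and 7.42 in CTRL 1 to 4 and 7.54, 7.60, 7.49, 7.45 and 7.64 in Emul 1 to 5. The CTRL libraries were tightly grouped, and only Emul 4 lay among them. The log2 fold change was 0.11 ± 0.038 (limma-voom, unadjusted p = 0.012, adjusted p = 0.20), and 0.09 without Emul 5. Pcsk1n, the PC1/3 inhibitor, had 9.20, 9.26, 9.27 and 9.30 in CTRL 1 to 4 and 9.35, 9.31, 9.16, 9.17 and 9.17 in Emul 1 to 5. Here Emul fell into 2 libraries above all CTRL libraries and 3 below them. The log2 fold change was -0.03 ± 0.043, with a 95% interval of -0.12 to 0.07.

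The granins were all slightly higher in Emul, with 0 of 4 past the unadjusted threshold. Scg2, the most abundant granin transcript in TPM, had a log2 CPM of 9.94, 9.91, 9.86 and 9.88 in CTRL 1 to 4 and 9.93, 9.94, 9.96, 9.94 and 10.16 in Emul 1 to 5. Emul 5 was well above all others, and Emul 2, 3 and 4 lay at or just above the highest CTRL library. The log2 fold change of 0.09 ± 0.044 (limma-voom, unadjusted p = 0.064) was 0.05 ± 0.024 without it. Chgb (0.09 ± 0.047, limma-voom, unadjusted p = 0.076) and Chga (0.04 ± 0.05) had their highest value in Emul 5 too, at 8.46 and 8.21. Without it their log2 fold changes were 0.05 and -0.00. Scg3 had 0.05 ± 0.033, with 7.65 to 7.71 in CTRL and 7.68 to 7.81 in Emul, led by Emul 1. Without Emul 1, Chgb and Scg2 passed the unadjusted threshold, and 5 of 10 genes did (14.4% of all genes). The TPM ratio of Chga to Chgb, singled out after its values were seen among 6 ratios, was 1.33 to 1.39 in CTRL and 1.25 to 1.32 in Emul. As a ratio of counts these groups overlapped, as did those of all 45 pairs of the 10 genes, whereas the groups did not overlap in 5.88% of all pairs of tested genes.

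**Figure D3:**
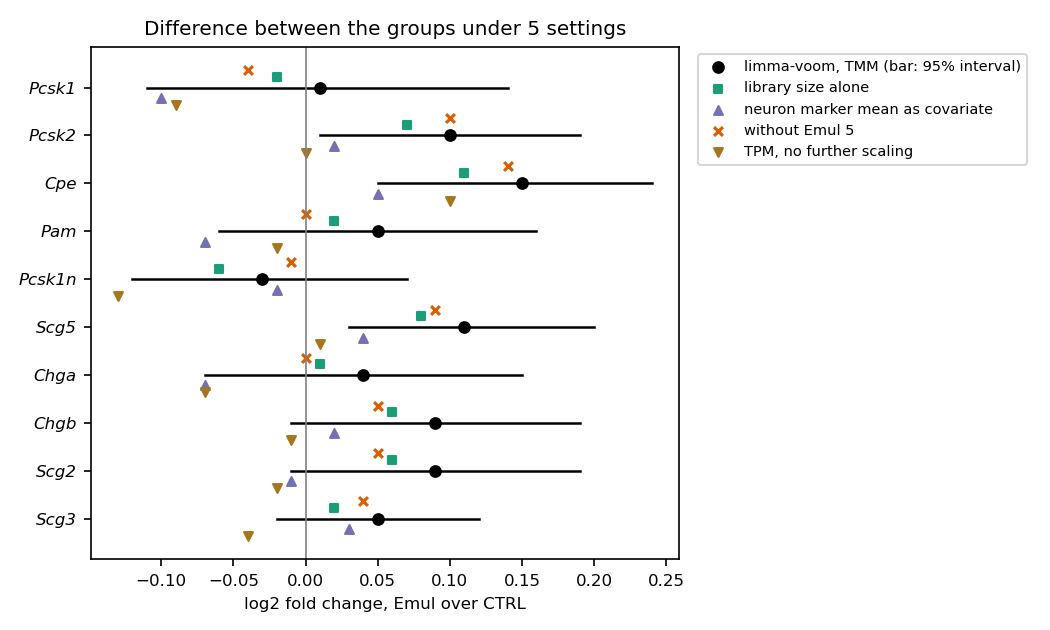
Log2 fold change of Emul over CTRL for the 10 genes by limma-voom with its 95% interval (black), and the same estimate under 4 other settings. Intervals of Cpe, Scg5 and Pcsk2 exclude 0, and with neuron markers as a covariate Cpe is at 0.05, Scg5 at 0.04 and Pcsk2 at 0.02.

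Some cell type marker lists differed between the groups in their mean or in counts at the unadjusted threshold. In every list 0 markers passed an adjusted p of 0.10. Of all genes, 6.84% passed the unadjusted threshold as higher and 8.99% as lower. The microglia, endothelial, and ependymal and tanycyte lists had 0, 1 and 0 of 6 past it, with overlapping means. The mean log2 CPM of 10 neuron markers was 8.24 to 8.35 in CTRL and 8.37 to 8.43 in Emul, without overlap, and 7 of the 10 passed the unadjusted threshold, 6 higher and 1 lower. Their summed TPM overlapped (3320 to 3600 and 3370 to 3600). The astrocyte marker mean was 7.40 to 7.49 in CTRL and 7.21 to 7.39 in Emul, with 1 of 6 markers past the threshold (Gfap, -0.40), and 5 of 6 oligodendrocyte markers passed the threshold as lower (means of 10.17 to 10.49 and 9.78 to 10.27, lowest in Emul 5). Of 7 thalamus markers tested, 3 passed as higher, with a median log2 fold change of 0.26. Of 9 MBH markers tested, 2 passed as lower (Fezf1, -0.32, and Isl1, -0.22). Their median was -0.05, and 2 of the 9 were higher at any p. Of 6 suprachiasmatic nucleus markers tested 1 passed, as lower, and of 4 pituitary markers 0 passed. These enzymes and granins are made mostly by neurons and endocrine cells, and Cpe by astrocytes too. With the neuron marker mean as a covariate, 0 of the 10 genes passed the unadjusted threshold, where 6.88% of all genes passed (15.8% without the covariate). There Cpe was at 0.05 ± 0.06, and Pcsk1, Pam, Chga and Scg2 turned to -0.10, -0.07, -0.07 and -0.01. Because that mean already separates the groups, its part and that of the maternal treatment cannot be told apart. In bulk tissue, a different number of cells of a type and a different amount of RNA per cell cannot be told apart either.

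Scaling shifted all genes together. By library size alone, without TMM, the median of all genes was at -0.03 and Pcsk1 at -0.02, and 9 of the 10 genes lay above that median, as with TMM. With TPM and no further scaling, the median of all genes was at -0.09 and 8 of the 10 lay above it, all but Pcsk1 and Pcsk1n. There Pcsk1 (-0.09), Chga (-0.07), Scg3 (-0.04), Pam (-0.02), Scg2 (-0.02) and Chgb (-0.01) were below 0, Cpe remained at 0.10, and Scg5 and Pcsk2 were at 0.01 and 0.00. Pcsk1n was at -0.13 in that fit, the 1 gene at an unadjusted p under 0.05, which 27.7% of all genes passed (limma, adjusted p = 0.097). Relative to the median of all genes it was at -0.039, and Cpe at 0.189.

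Across libraries, log2 CPM of the 10 genes was mostly positively correlated. Of the 45 pairs, 36 had a positive Pearson r over 9 libraries, with a median of 0.53, and 13 had r above 0.7. Over all pairs of tested genes the median was 0.00, and 2.71% had r above 0.7. The libraries share their cell makeup and the group difference, so these values are a description. Emul 5 carried much of it: without it the median was 0.31 and 4 pairs were above 0.7 (0.00 and 3.5% over all pairs of genes). Pam and Chga (r = 0.94, rho = 0.67) dropped to 0.71, and Chgb and Scg2 (0.93, rho = 0.85) to 0.64. Pcsk2 and Cpe had r = 0.88 and rho = 0.77, and kept 0.88 without Emul 5 and 0.71 without the 2 libraries farthest from the median of Pcsk2, CTRL 3 and Emul 3. Pcsk1n had a negative r in 8 of its 9 pairs, from -0.58 with Chgb to 0.23 with Scg3. Without Emul 5 it was negative in 3 of the 9, with Pcsk2, Chgb and Scg2, and r with Pcsk1 went from -0.09 to 0.61. By exact permutation, 0 of 45 pairs had an adjusted p under 0.05, and the lowest was 0.0504.

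**Figure D4:**
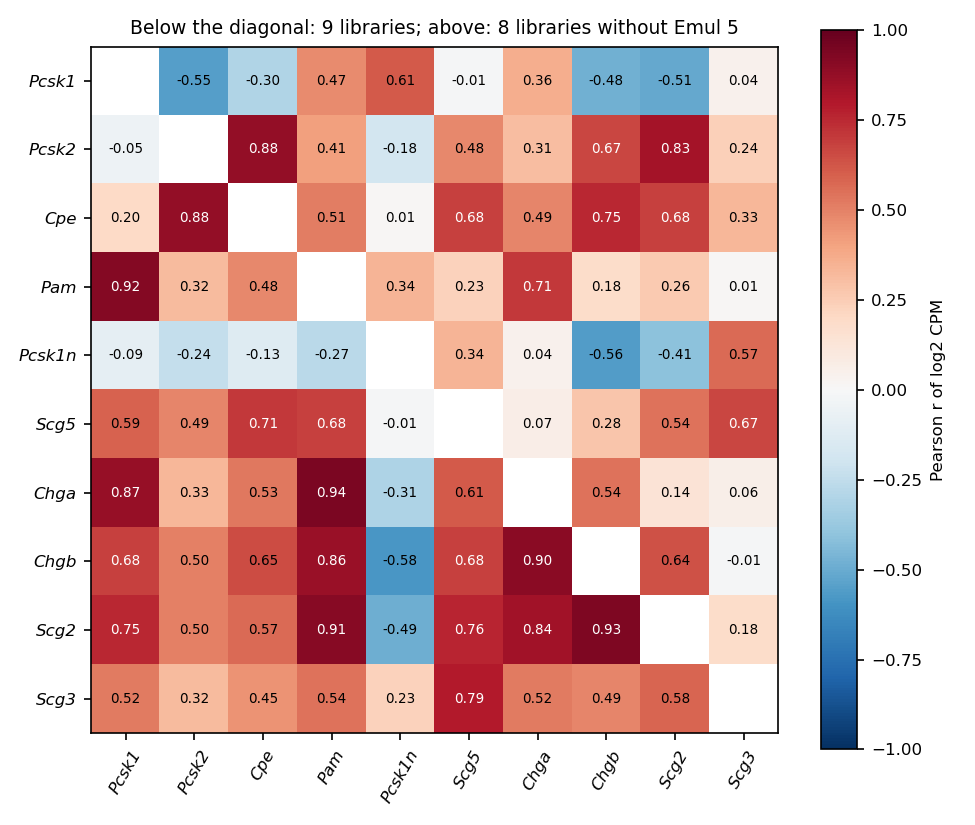
Pearson r of log2 CPM for the 45 pairs of the 10 genes, over 9 libraries below the diagonal and over 8 libraries without Emul 5 above it. Pcsk2 with Cpe is 0.88 on both sides, and Pcsk1 with Pam is 0.92 below the diagonal and 0.47 above it.

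Averaged as z-scores over the 10 genes, the libraries stood at -0.31, -0.56, -0.80 and -0.12 for CTRL 1 to 4 and at 0.30, 0.35, 0.06, -0.50 and 1.59 for Emul 1 to 5. Emul 5 was highest, and Emul 4 lay within the CTRL range. Outside the 10 genes, the 3 whose log2 CPM followed this mean most closely over 9 libraries were Rnps1, a splicing-associated protein, Emd, the nuclear membrane protein emerin (r = 0.961), and Hpcal1, a neuronal calcium sensor (r = 0.96). Without Emul 5 their r was 0.93, 0.89 and 0.86. They were picked as the highest r among all tested genes over largely the same libraries, so neither set of values adds to that choice.

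Of the 40 transcripts, 6 held between 5% and 95% of their gene's estimated counts, in Scg2, Scg3 and Pam. In the other 7 genes 1 transcript held at least 98.4%. Scg2-202 lacks 120 bases of coding sequence, 40 codons in frame, inside exon 2 of Scg2-201 (chr1:79435932-79436051 on mm10, minus strand). Scg3-202 ends an exon 15 bases, or 5 codons, earlier than Scg3-201 (chr9:75663193-75663207, minus strand). Both stretches are shown from the GENCODE M21 transcripts, 5′ to 3′ on the gene's strand, because they tell the transcripts of a granin apart. Capitals mark the bases GT at the start of each and AG at the end of the Scg2 stretch, the letters that usually bound an intron.
Scg2-201 only: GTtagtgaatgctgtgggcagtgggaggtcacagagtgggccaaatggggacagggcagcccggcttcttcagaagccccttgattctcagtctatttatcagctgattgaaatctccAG
Scg3-201 only: GTaagctattcccag

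Scg2-201, with the longer coding sequence, held 54.6%, 53.7%, 57.2% and 55.9% of the gene's counts in CTRL 1 to 4 and 54.1%, 57.3%, 58.2%, 57.3% and 60.8% in Emul 1 to 5. The means were 55.4% ± 1.5 and 57.5% ± 2.4, Emul 5 was highest, and the ranges overlapped (exact permutation test, two-sided, p = 0.15, adjusted p = 0.45 over 6 transcripts, n = 4 and 5). Scg3-202, the shorter form, held 66.9% ± 1.3 in CTRL and 67.3% ± 1.1 in Emul (exact permutation p = 0.67), close to constant across the libraries. Pam-201 held 79.3% ± 3.3 and 79.8% ± 1.2 (exact permutation p = 0.78). Pam-202, which lacks 1 codon, held 15.0% ± 2.3 and 13.9% ± 1.1. These shares are kallisto's assignment of reads that the transcripts largely have in common.

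**Figure D5:**
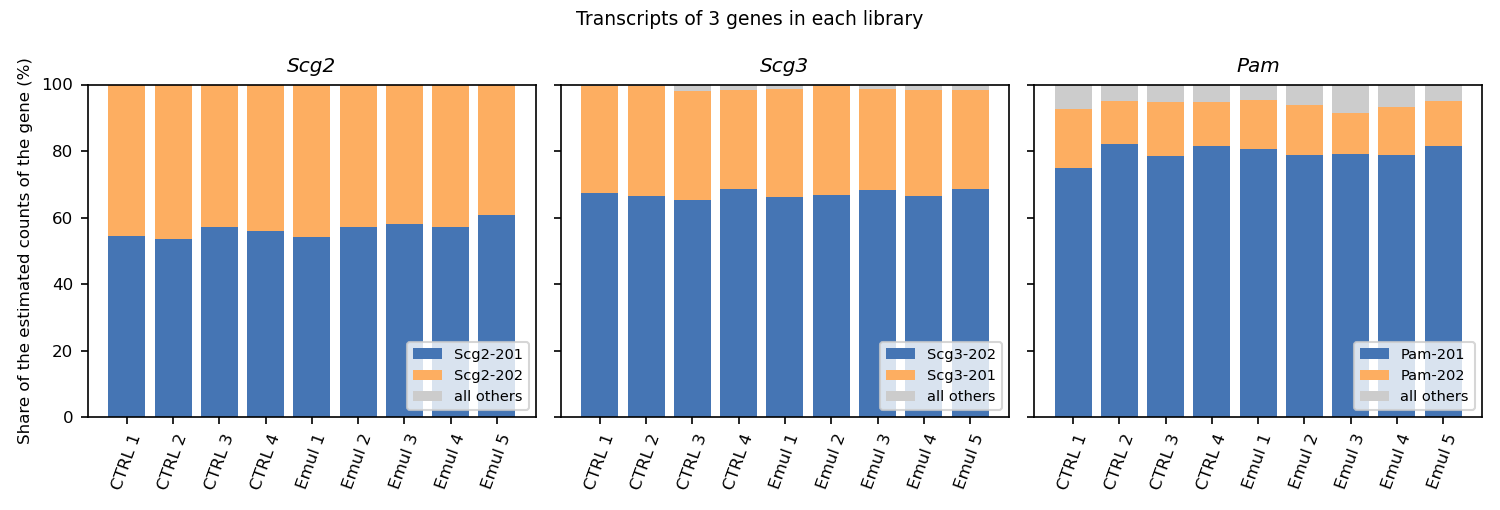
Share of each gene's estimated counts in percent, stacked by transcript, for Scg2, Scg3 and Pam in the 9 libraries. The split is near 67% to 32% for Scg3 in each library, and Scg2-201 ranges from 53.7% to 60.8%.

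The authors' own table of log2 CPM gave the same genes 0.09 to 0.11 above the sums used here on average, except Scg3, whose difference was -1.55 (6.17 against 7.72). Of the Scg3 counts, 31.6% lay on transcripts with older Ensembl numbers, which is -1.66 on the log2 scale, and Scg3-202 has a newer number. For the other 9 genes that share was 98.4% or more. On the authors' table the log2 fold change was 0.13 for Cpe, 0.11 for Scg5 and 0.10 for Pcsk2, and the level of Scg3 relative to the other granins depends on which table is read.

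Other genes of peptide processing and release were read in the same fit, from lists chosen by function. Of 18 other convertases and trimming enzymes, 16 were tested. Of these, 0 passed the unadjusted threshold as higher and 2 as lower, with a median log2 fold change of -0.03. This share was near that of all genes (15.8%, and 8.99% as lower). The lower ones were Cpd, a carboxypeptidase of the trans-Golgi network (-0.13 ± 0.042, limma-voom, unadjusted p = 0.0088, adjusted p = 0.18), and the membrane carboxypeptidase Cpm (-0.25 ± 0.11, and -0.17 without Emul 5). Rnpep, an aminopeptidase for basic residues, was at -0.07, and the ubiquitous convertase Furin at -0.02. Cpd was 6.63 to 6.69 in CTRL and 6.46 to 6.67 in Emul, with overlap.

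All 30 dense-core vesicle genes were tested, and 5 passed the unadjusted threshold as higher and 2 as lower (6.84% and 8.99% of all genes), with a median log2 fold change of 0.02. The lowest p-values were those of Ica1 (0.17 ± 0.044, limma-voom, adjusted p = 0.12), which works in vesicle maturation, the vesicle calcium sensor Syt9 (0.22 ± 0.058, limma-voom, adjusted p = 0.14) and the Rab3 effector Rph3a (0.09 ± 0.029). They were picked as the smallest p-values of the list, so their ranges, such as 5.12 to 5.27 in CTRL and 5.29 to 5.57 in Emul for Syt9, add nothing to that choice. The granin-like precursor Vgf was at 0.00 ± 0.056 and the vesicle membrane protein Ptprn at -0.01 ± 0.033.

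Of 40 neuropeptide precursors, the substrates of the pathway, 29 were tested. Of these, 2 passed as higher and 3 as lower, with a median of -0.01. Their share was near the 15.8% of all genes. The lower ones were Pmch (-0.32 ± 0.10), which encodes melanin-concentrating hormone, Hcrt (-0.70 ± 0.23), which encodes the orexins, and Vip (-1.5 ± 0.57), which encodes vasoactive intestinal peptide. Vip was at -0.92 by edgeR and -0.95 by DESeq2. By limma-voom the adjusted p-values of Pmch, Hcrt and Vip were 0.19, 0.19 and 0.24. In that fit Hcrt and Vip were the 2 of the 29 at the study's cutoff, which 0.469% of all genes passed. Hcrt ranged from 6.52 to 6.79 in CTRL and from 5.22 to 6.58 in Emul, an SD of 0.61 in Emul against 0.13. Vip, also in the list of suprachiasmatic nucleus markers, had low counts. It ranged from 2.42 to 3.41 in CTRL and from -0.17 to 3.19 in Emul, an SD of 1.6 in Emul against 0.51. Pomc was at -0.23 ± 0.15, Cartpt, which encodes the CART peptides, at -0.10 ± 0.077, Agrp, which encodes the melanocortin antagonist, at 0.11 ± 0.13, and Npy at 0.28 ± 0.14. By qPCR in the MBH of male offspring at weaning, normalized to Gapdh, the study reported reduced Pomc and Cartpt expression. Its panel also held Agrp, Npy and Pcsk1, and its text named none of these as changed. By immunostaining it reported denser α-MSH in the paraventricular nucleus of the hypothalamus in such males. In the libraries read here, Pomc, Cartpt, Agrp and Npy did not pass the unadjusted threshold, and single libraries moved them. Without CTRL 4, Pomc was at -0.05 and Cartpt at -0.02, and without CTRL 1 Pomc was at -0.37. Without Emul 5, Agrp was at 0.004 and Npy at 0.15, and without Emul 4 Agrp was at 0.20. In the 3 lists, 0 genes had an adjusted p under 0.05 by limma-voom.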

How the data were processed

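Strand-specific mRNA libraries from the MBH of P21 male mice (4 CTRL, 5 Emul) were processed by the authors. The authors deposited, for each library, kallisto estimated counts and TPM values for 119414 transcripts on mm10, and a table of log2 CPM per gene symbol. The submitters' processing notes name FastQC 0.11.9, kallisto 0.46.1 and edgeR 3.40.1. How the log2 CPM table was summed to genes is not given in the sources used here, and its 1 nameless row was not used.

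Transcripts were matched to GENCODE M21 by Ensembl identifier (97.8% matched, 97.3% with the same version), and the 1.2% to 1.27% of counts on the others were left out. Gene sums had to exceed a CPM of 1 in 4 or more libraries. The 2 groups were compared with limma-voom (limma 3.58.1, R 4.3.3) with TMM, no covariates, and Benjamini-Hochberg adjustment over all 15340 genes. Library log2 CPM used a prior count of 2. Sums were rounded for edgeR 4.0.16 (quasi-likelihood) and DESeq2 1.42.0. Shares and pairs were tested by exact permutation, two-sided (smallest p for 4 against 5: 0.0079). The steps were tested on simulated data, where DESeq2 made more false calls than limma-voom or edgeR. The genes, lists and tests were chosen with earlier results of these data known. Named are the 10 genes, the 3 smallest p-values in each related list, Vgf, Pomc, Cartpt, Agrp, Npy, Furin and Ptprn whatever their values, and the 3 genes most like the mean of the 10. The closing section gives the alternatives. No labels tie replicate numbers to shared litters or days, and the numbers did not pair the libraries. Libraries of a group differed by more than sampling noise (lowest chi-square per gene 7.49). P-values measure the spread between these libraries.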

Additional observations from a re-analysis of the deposited data

Results flagged for a closer look

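Emul 5 was far above the other 4 Emul libraries in log2 CPM for 3 of the 10 genes: Pam (8.86 against 8.59 to 8.63), Chga (8.21 against 7.96 to 8.01) and Scg2 (10.16 against 9.93 to 9.96). The gap to the nearest library made up 0.838, 0.832 and 0.886 of the group's range. In 32 groups of gene levels and transcript shares examined, 3 such values were found where chance gives about 1.6 (1 in 20). All 3 fell in the same library. Genes of a library share its cell makeup, and transcript shares of a gene depend on each other. The 3 values are therefore not separate events. Emul 5 also had the lowest oligodendrocyte marker mean (9.78). Without it, the log2 fold changes were 0.00 for Pam (0.05 with it), -0.0034 for Chga (0.04) and 0.05 for Scg2 (0.09), while Cpe was at 0.14, Scg5 at 0.09 and Pcsk2 at 0.10.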

How the results depend on the processing

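The 10 genes were refitted under 21 alternative settings, giving 210 estimates. Of these, 193 kept their direction and side of the adjusted threshold, 16 reversed and 1 passed (Cpe by DESeq2). Because 0 of the 10 genes were called in the main comparison, no reversal could fall in a called gene. With the neuron marker mean as covariate, 0 of the 10 genes, 0 other convertases and 3 vesicle genes passed the unadjusted threshold (3, 2 and 7 in the main comparison), and Pcsk1 (-0.10), Pam (-0.07), Chga (-0.07), Scg2 (-0.0093), Rnpep (0.0026), Agrp (-0.23) and Npy (-0.03) reversed. With TPM and no further scaling, chosen after seeing the data, 1 of the 10 genes and 4 other convertases passed, and Pcsk1 (-0.09), Pam (-0.02), Chga (-0.07), Chgb (-0.01), Scg2 (-0.02), Scg3 (-0.04), Rph3a (-0.008) and Vgf (-0.10) reversed. By library size alone Pcsk1 (-0.02) and Vgf (-0.03) reversed, with length-scaled TPM Pcsk1 (-0.00014), and on the authors' table Rnpep (0.00026). Of all genes, 6.88% passed the unadjusted threshold with the neuron covariate and 27.7% with TPM. At an adjusted p under 0.10 or 0.05, 0 of the 10 passed (0.398% and 0.117% of all genes). Without a filter, which also lets in precursors of low count, 8 precursors passed in place of 5 (2971 of 27665 genes passed there). With older-numbered transcripts 1 other convertase passed (2197 of 14591 genes). The replicate numbers do not pair the libraries (correlation of same-numbered deviations -0.16 to 0.02). With the number as a replicate block 2 of the 10 genes (Cpe and Scg5), 1 other convertase and 3 precursors passed (1893 of 15340 genes). In that fit Pcsk1 was at -0.04 and Chga at -0.0031. Only Emul has a replicate 5, so Emul 5 adds nothing to the group difference there. The block fit therefore partly repeats the fit without Emul 5. Vip was at -0.46 with the neuron covariate and -0.65 with the block. Leaving out 1 library gave 2 to 5 of the 10 genes, 1 to 2 other convertases and 4 to 9 vesicle genes (4 without CTRL 4 or Emul 3). It gave 3 to 8 precursors (3 without CTRL 3, Emul 2 or Emul 3, 8 without Emul 4). Of all genes, 1907 of 15286 (without CTRL 4) to 2655 of 15291 (without Emul 4) passed. Pairs numbered 0 to 4 (4 without CTRL 4). Leaving out 1 library moved Pcsk1 between -0.04 and 0.04 and Chga between -0.0034 and 0.07. It moved Furin up to 0.01, Vgf down to -0.04 and Ptprn up to 0.0096. The causes were not tested. DESeq2 also called 341 genes in all, against 18 by limma, and brought Ica1 (adjusted p = 0.027) and Syt9 (adjusted p = 0.022) past the threshold, and TPM brought Pmch (-0.42, limma, adjusted p = 0.049).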

Other observations

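Minor transcripts of these genes, with a mean share under 5% and a mean estimated count of at least 50, were examined after the data had been seen and are given with no test. There were 10 of them, of which 2 were lower and 1 was higher in Emul without overlap between the groups. Among the 7356 such transcripts of all tested genes, 3.49% were lower and 1.7% higher without overlap, and among the 2867 annotated as retained introns 6.1% were lower and 2.16% higher.

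Both lower ones were the retained-intron transcripts of Chga. Chga-202 (chr12:102554986-102556406, mm10) held 0.851% to 1.03% of the gene's counts in CTRL and 0.532% to 0.842% in Emul, from 60 to 104 counts in a library. Chga-203 (chr12:102558068-102561475) held 0.908% to 1.08% and 0.494% to 0.843%. The retained-intron transcript Pam-206, by contrast, was at 0.801% to 1.01% in CTRL and 0.887% to 1.43% in Emul.

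The higher one was Cpe-202 (chr8:64609191-64620485), annotated as a processed transcript with no coding sequence. It held 0.16%, 0.47%, 0.159% and 0.00428% of the Cpe counts in CTRL 1 to 4 and 1.32%, 0.504%, 2.32%, 0.507% and 1.80% in Emul 1 to 5, which is 4 to 389 and 469 to 2065 estimated counts. CTRL 2 came close to Emul 2 and Emul 4. With older-numbered transcripts only, which leaves Cpe-202 out, the log2 fold change of Cpe was 0.13 in place of 0.15.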
